A study of Mus musculus with 2 samples.

Results

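The 5 genes of the prostaglandin pathway described here were followed across the cell populations of the mouse aorta: the cyclooxygenases Ptgs1 and Ptgs2, the prostacyclin synthase Ptgis, the prostaglandin E synthase Ptges and the prostacyclin receptor Ptgir. They were taken by symbol, and 5 of 5 were found among the 16971 genes of the deposited table. Each of them also passed the filter on low counts that left 10488 genes for testing. Ptgir is a receptor and the other members are enzymes.

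Prostanoids are made from arachidonic acid that phospholipases free from membranes. A cyclooxygenase turns it into prostaglandin H2, which a terminal synthase then makes into one product: Ptgis makes prostacyclin and Ptges makes prostaglandin E2. Prostacyclin relaxes smooth muscle and holds back platelets through Ptgir, which signals by cyclic AMP; Ptgs1 is known as the cyclooxygenase present at rest and Ptgs2 as the one that stimuli induce.

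The RNA of single cells was captured in droplets from whole aortas of wild-type C57/BL6 female mice, 12 weeks old and fed chow, after removal of the surrounding fat and digestion with enzymes. The 2 libraries form 1 group named WT, with no mutant, treated or otherwise altered animals, so the comparisons are between cell populations. The authors divided the cells into 10 populations, which they named VSMC (smooth muscle), Fibro 1 and Fibro 2 (fibroblasts), EC 1, EC 2 and EC 3 (endothelial cells), Mono 1, Mono 2, Macro and Neuron. Levels are CPM, the UMIs of a gene (unique molecular identifiers, 1 per captured transcript) over all UMIs of a population in a library, scaled to counts per 1e6, given as mean ± SD over n = 2 libraries. How well a transcript is captured differs between genes, so levels are compared between populations and not between genes.

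Library 1 held 2260 cells and 11104066 UMIs, and library 2 held 3191 cells and 19484171 UMIs, with medians of 4160.5 and 5636 UMIs per cell. The numbers of cells per population and library ran between 12 (Neuron) and 1103 (VSMC), and 12 barcodes occurred in both libraries. The smooth muscle, fibroblast and endothelial names held up against their markers: the 5 smooth muscle markers summed to 31087 CPM in VSMC and to at most 2448 CPM elsewhere, the 6 fibroblast markers to 26256 CPM in Fibro 1 and 25818 CPM in Fibro 2 against at most 1086 CPM elsewhere, and the 6 endothelial markers to between 4060 and 6096 CPM in the EC populations against at most 139 CPM elsewhere. EC 3 also carried 5 lymphatic markers, at 4184 CPM. EC 2 carried 5 pericyte markers at 1048 and 750 CPM, against 60.5 CPM in EC 1 and 83.7 CPM in EC 3 on average. In VSMC the same markers averaged 1393 CPM. Of these Higd1b, Notch3 and Kcnj8 were higher in EC 2 (47.1, 49.7 and 60.2 CPM) than in VSMC (1.33, 25.8 and 34.3 CPM). Rgs5 and Abcc9 were lower in EC 2 (630 and 28.8 CPM) than in VSMC (1237 and 108 CPM). The part of pericyte markers in the differences between EC 1 and EC 2 was not tested. The name Macro went against the data, since 6 macrophage markers summed to 80.6 CPM there, 17498 CPM in Mono 1 and 1869 CPM in Mono 2. Macro held T and NK cell markers (1670 CPM) and B cell markers (1172 CPM), and in library 2 mast cell markers (1926 CPM). Of the mast cell markers, Cpa3 had 77 UMIs in Macro, all in 1 cell. Neuron held Schwann cell markers, at 9961 CPM, and pericyte markers, at 1684 CPM.

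The genes differed widely in depth. Ptgis had 17211 UMIs in 66.5% of all cells and Ptgs1 had 1455 UMIs in 13.4% of cells. Ptgs2 had 319 UMIs, Ptges 183 and Ptgir 137, in 3.74%, 3.10% and 2.31% of cells, so that levels of these genes in the small populations rest on a few UMIs or none. Fold changes are log2 values from 1 edgeR quasi-likelihood fit to the sums of UMIs per library and population, with library as a block. Folds are given ± SE, where the SE was worked out from the test statistic, and a gene is called when its p-value, adjusted by the Benjamini-Hochberg method over all genes tested, is under 0.05. The populations had been named from these same counts, so the p-values are not independent of the naming.

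**Figure D1:**
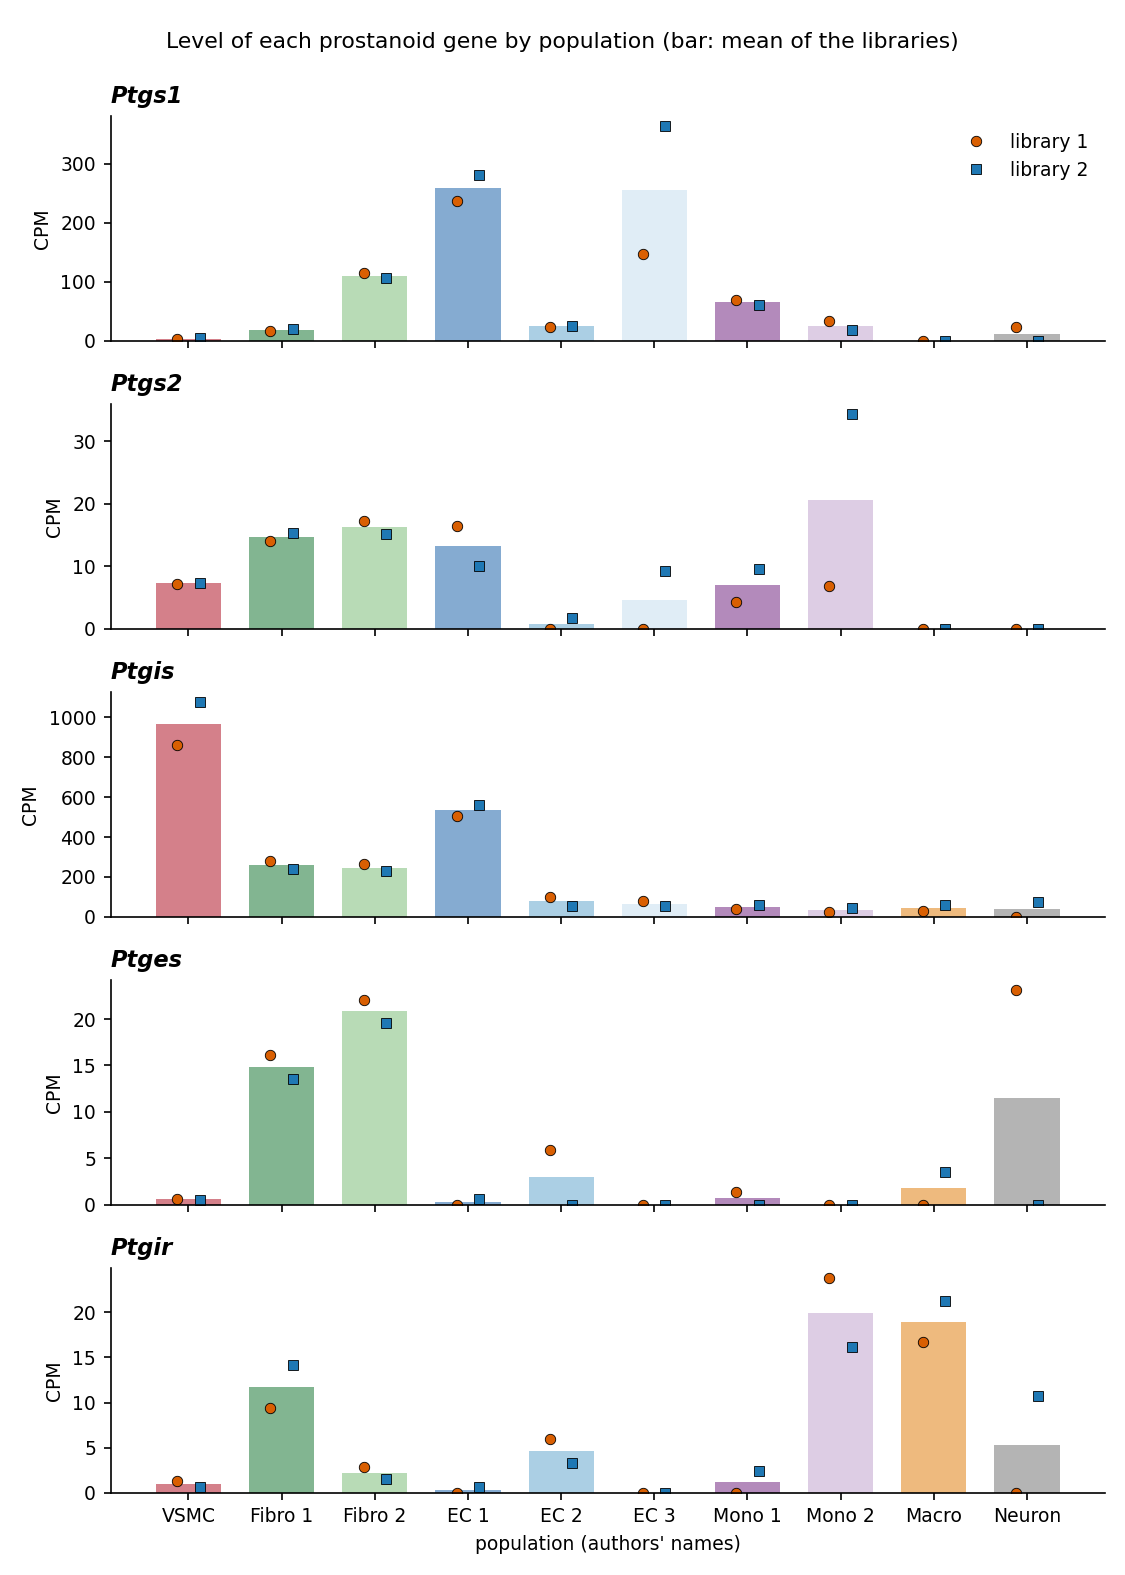
Level of each gene in CPM (vertical axis, a separate linear scale for each gene) in the 10 populations (horizontal axis); bars are means of the libraries, and orange circles and blue squares are libraries 1 and 2. Ptgis is highest in VSMC, Ptgs1 in EC 1 and EC 3, and Ptges in the fibroblasts, while the bars of Ptgs1, Ptges and Ptgir in Neuron rest on 1 UMI each.

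The cyclooxygenase genes lie apart, Ptgs1 at chr2:36230426-36252272 and Ptgs2 at chr1:150100031-150108227, both on the + strand of GRCm38 in GENCODE. The sequence around their starts is shown because the RNA of the pair was spread over the populations in different ways. Each line gives 250 bases before the annotated start and the first 30 bases from it (RefSeq, build GRCm38.p6, chr2:36230176-36230455 for Ptgs1 and chr1:150099781-150100060 for Ptgs2, + strand, 5′ to 3′), with matches to 5 motifs in capitals.
Ptgs1: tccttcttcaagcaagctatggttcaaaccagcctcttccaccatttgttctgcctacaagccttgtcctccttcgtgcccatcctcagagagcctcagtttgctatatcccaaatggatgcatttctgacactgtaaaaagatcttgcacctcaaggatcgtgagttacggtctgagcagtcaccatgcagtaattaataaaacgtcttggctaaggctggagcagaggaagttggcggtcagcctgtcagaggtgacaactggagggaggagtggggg
Ptgs2: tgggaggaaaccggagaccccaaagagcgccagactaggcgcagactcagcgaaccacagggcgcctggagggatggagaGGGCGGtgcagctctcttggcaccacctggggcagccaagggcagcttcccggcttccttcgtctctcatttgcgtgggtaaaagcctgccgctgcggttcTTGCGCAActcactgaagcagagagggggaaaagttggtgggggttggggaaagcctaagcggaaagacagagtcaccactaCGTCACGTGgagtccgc
The motifs searched on both strands were the cyclic AMP response half-site TGACG, the E-box CACGTG, the C/EBP palindrome TTGCGCAA, the TATA box TATAAA and the GC box GGGCGG, which occur in 19.9%, 6.79%, 0.18%, 13.1% and 34.7% of 32851 mouse promoter windows of the same length. Ptgs2 held 4 matches: a GC box at -170 to -165 from the start, the C/EBP palindrome at -69 to -62, and at 14 to 22 a half-site on the minus strand that overlaps an E-box. Ptgs1 held 0 matches, which says only that these letters are not in this window. The window of Ptgs1 had 49.6% G and C and that of Ptgs2 61.4%, against a median of 52.5% over all windows. Ptges and Ptgir each had 2 GC boxes, and Ptgis is not in the table of promoters. The window of Ptges (RefSeq, chr2:30903268-30903547, - strand) lay inside the span of the gene in GENCODE (chr2:30889471-30929863), and not at the 5′ end of that span.

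Ptgs1 was highest in endothelial cells, intermediate in Fibro 2 and Mono 1, and close to 0 in smooth muscle cells. Its level was 237 and 281 CPM in the EC 1 libraries, 147 and 364 CPM in EC 3, 114 and 107 CPM in Fibro 2, and 70.1 and 61.6 CPM in Mono 1. EC 1 and EC 3 overlapped, and each of the next populations in this order lay clear of the one before it. Mono 2 averaged 26.1 ± 11.2 CPM, EC 2 24.4 ± 1.06 CPM and Fibro 1 18.5 ± 2.69 CPM, the ranges of Mono 2 and EC 2 overlapping. In VSMC the level was 3.36 and 4.21 CPM, from 52 UMIs in 2159 cells. Macro had 0 UMIs in 167 cells, which at 3 counts allows up to 12.6 and 10.6 CPM in libraries 1 and 2.

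EC 1 held 38.8% of the Ptgs1 UMIs, and Fibro 2 held a further 28.1%. A Ptgs1 UMI was seen in 45.9% of EC 1 cells of library 1 (exact Clopper-Pearson 95% interval 37.7 to 54.3%) and 68.6% of library 2 (62.8 to 74.0%), against 1.72% (1.04 to 2.68%) and 3.03% (2.08 to 4.25%) of VSMC. The deeper library had the larger share, and after thinning each cell to 2000 UMIs the EC 1 shares were 34.5% and 41.4%, against 0.733% and 0.672% in VSMC. These intervals, and the others given, cover counting error only.

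Ptgs1 was called in 35 of the 45 pairs of populations. In the pairs described below, the share of all genes called ran between 11.6% (EC 1 against EC 3) and 51.8% (VSMC against Mono 1). For the remaining pairs that share is not given. The counts of pairs, here and for the other members, therefore stand without a background. VSMC lay 6.05 ± 0.22 below EC 1 on the log2 scale (log2 fold -6.05, adjusted p = 3.31e-20), a ratio of 70.0 with a counting interval of 52.7 to 94.9. Fibro 1 lay below Fibro 2 (log2 fold -2.50 ± 0.21, adjusted p = 7.06e-11), with -2.72 in library 1 and -2.37 in library 2. Both fibroblast populations were lower than EC 1, Fibro 1 with a log2 fold of -3.75 ± 0.20 (adjusted p = 3.41e-16) and Fibro 2 with -1.25 ± 0.17 (adjusted p = 3.16e-07). The endothelial populations were unequal. EC 1 exceeded EC 2 in both libraries (2.76 and 3.31, fitted log2 fold 3.56 ± 0.32, adjusted p = 2.98e-10). EC 1 and EC 3 could not be separated (0.05 ± 0.21, adjusted p = 0.959), with 0.56 in library 1 and -0.39 in library 2.

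Within EC 3 and Fibro 2, Ptgs1 was uneven between cells. Of the 94 EC 3 cells, those with at least 2 UMIs of lymphatic markers had 11.7 and 197 CPM of Ptgs1 in libraries 1 and 2 (1 and 42 UMIs in 25 and 42 cells). The EC 3 cells under that count had 417 and 685 CPM (18 and 76 UMIs in 9 and 18 cells). The lymphatic-marked cells were thus the lower ones in both libraries, and in library 2 they still exceeded EC 2. Fibro 2 cells with a UMI of Pi16, a gene of adventitial progenitor-type fibroblasts, had 125 and 118 CPM of Ptgs1 (180 and 370 cells), against 18.9 and 7.60 CPM in Fibro 2 cells without one (27 and 57 cells). They held 405 of the 409 Ptgs1 UMIs of Fibro 2. Ptgis was also higher in cells with a Pi16 UMI (285 and 238 CPM, against 85.1 and 137 CPM without). Ptges did not follow this division (20.3 and 18.8 CPM with a Pi16 UMI, 37.8 and 26.6 CPM without, the latter from 4 and 7 UMIs). Nor did Ptgs2 (16.0 and 13.5 CPM with, 28.4 and 30.4 CPM without, the latter from 3 and 8 UMIs). These divisions were chosen after values had been seen and were not tested, and depth differed between the cells set apart. Fibro 2 cells with a Pi16 UMI were the deeper ones (medians of 4657 and 6274 UMIs, against 3862 and 4400 UMIs), and in EC 3 the lymphatic-marked cells were the shallower ones (2865 and 4324 UMIs, against 3003 and 6558 UMIs).

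**Figure D2:**
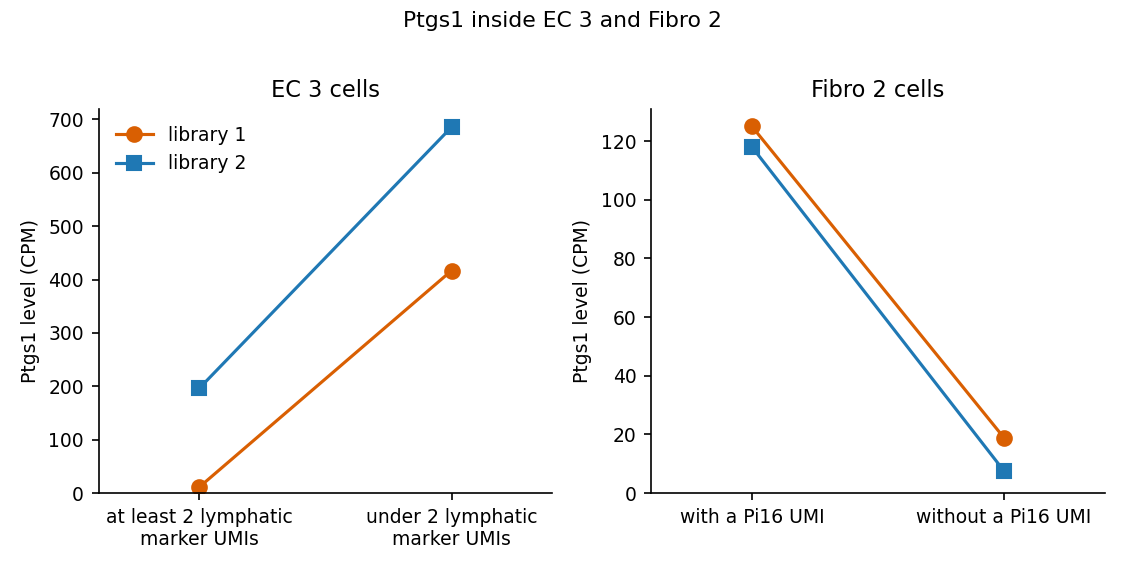
Level of Ptgs1 in CPM (vertical axes, linear and different) in EC 3 cells divided by lymphatic marker UMIs and in Fibro 2 cells divided by Pi16; orange circles and blue squares are libraries 1 and 2, and lines join the same library. In EC 3 the cells with at least 2 lymphatic marker UMIs are lower in both libraries, and in Fibro 2 the cells with Pi16 are higher in both.

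Ptgs2, the inducible cyclooxygenase, was sparse everywhere and flatter across populations than Ptgs1. Its level was 17.3 and 15.2 CPM in the Fibro 2 libraries, 14.0 and 15.3 CPM in Fibro 1, 16.5 and 10.0 CPM in EC 1, 7.22 and 7.37 CPM in VSMC, and 4.29 and 9.60 CPM in Mono 1. The fibroblasts and EC 1 overlapped, and VSMC lay below all of these 3. EC 2 had 1 UMI in 229 cells and EC 3 had 3 UMIs in 94 cells. Macro and Neuron had 0 UMIs in 167 and 44 cells.

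Ptgs2 was called in 13 of 45 pairs. VSMC was lower than Fibro 1 (log2 fold -1.02 ± 0.30, adjusted p = 0.00601) and Fibro 2 (-1.09 ± 0.33, adjusted p = 0.00825). The difference between VSMC and EC 1 missed the threshold (-0.68 ± 0.42, adjusted p = 0.222), and so did that between Fibro 1 and Fibro 2 (-0.07 ± 0.33, adjusted p = 0.943). EC 1 exceeded EC 2, with 25 UMIs against 1, a ratio of 9.09 with a counting interval of 1.49 to 373 (adjusted p = 0.0394). This call was lost with DESeq2 (adjusted p = 0.0722) and without library as a block (adjusted p = 0.0556). VSMC held 31.0% of all Ptgs2 UMIs, Fibro 1 30.7% and Fibro 2 18.5%.

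The highest mean of Ptgs2, 20.5 ± 19.4 CPM in Mono 2, came from 1 cell. That cell, in library 2, held 15 of the 19 Ptgs2 UMIs of Mono 2, while no other cell in the data had more than 8. It also held 11 UMIs of Ccr7, a chemokine receptor of migrating dendritic cells, 146 of the chemokine Ccl5 and 12 of the cytokine Il1b, with 1 UMI each of Ccr7 and of Ccl5 in all other Mono 2 cells together. The same cell held 0 UMIs of the markers Flt3 (monocyte and dendritic), C1qa (macrophage) and Cd3e (T and NK), and its type was not tested. Mono 1 was below Mono 2 with the cell (log2 fold -1.75 ± 0.59, adjusted p = 0.0379). Without it the level in Mono 2 was 6.79 and 4.07 CPM and the fold turned to 0.48 (adjusted p = 0.92, fitted without the filter on low counts).

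Ptgs2 is a member of the fast response to stimuli, and cells with a Ptgs2 UMI were set beside other cells of their population for 18 immediate early genes, such as Fos, Jun and Egr1. In Fibro 1 these genes summed to 13058 and 11843 CPM in cells with Ptgs2 (15 and 38 cells), against 5324 and 4778 CPM in cells without it. In Fibro 2 the sums were 7305 and 10335 CPM with Ptgs2, against 5462 and 6544 CPM without, and in VSMC 4619 and 4535 CPM with it, against 4200 and 3747 CPM without. The direction was the same in both libraries of these 3 populations. In EC 1 it was not: 5525 and 3176 CPM with Ptgs2 stood against 4258 and 3470 CPM without. In Mono 1 only 3 and 8 cells had Ptgs2, with 19949 and 17700 CPM, against 9009 and 9826 CPM in the other Mono 1 cells. Mono 2 had 1 and 3 such cells, and the libraries went opposite ways (17049 and 6708 CPM with Ptgs2, against 5349 and 7088 CPM without). The 1 such cell of EC 2, in library 2, had 6185 CPM, against 7373 CPM in the others, and the 2 of EC 3, also in library 2, had 5797 CPM, against 4638 CPM. Cells with Ptgs2 were also deeper in both libraries of VSMC, Fibro 1, Fibro 2, EC 1 and Mono 1. In Fibro 1 their medians were 6164 and 6639 UMIs, against 4499 and 5984 UMIs in the cells without it. In library 2 of EC 3 and of Mono 2 the cells with Ptgs2 were shallower (4054 against 4670 UMIs, and 6764 against 7001 UMIs). The part of depth in these sums was not tested.

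**Figure D3:**
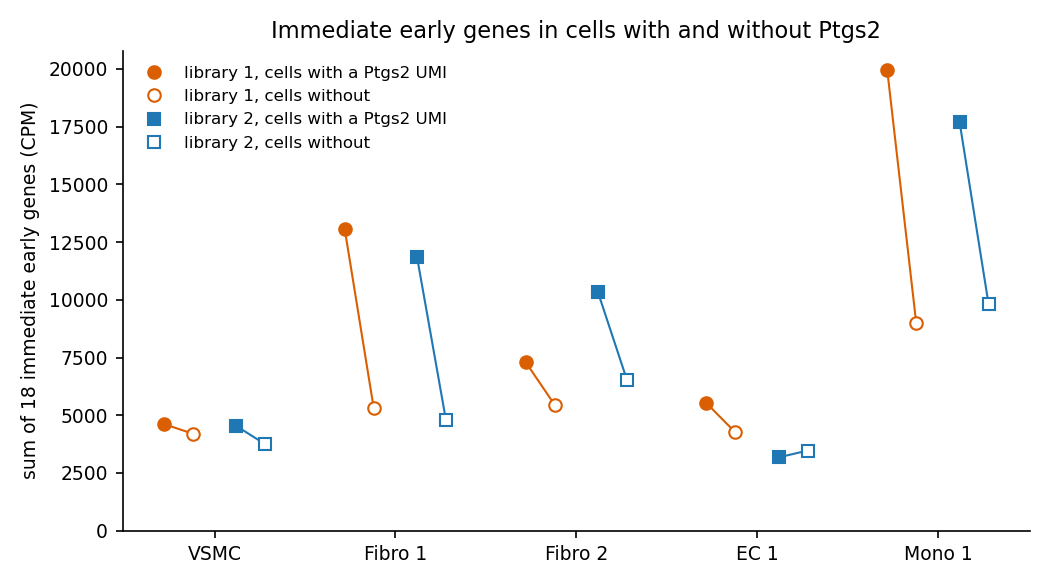
Sum of 18 immediate early genes in CPM (vertical axis, linear) in 5 populations; filled symbols are cells with a Ptgs2 UMI, open symbols cells without one, orange circles library 1 and blue squares library 2, and lines join the same library. The filled symbol lies above the open one in both libraries of VSMC, Fibro 1, Fibro 2 and Mono 1, and in library 1 alone of EC 1; populations with fewer cells with Ptgs2 are not drawn.

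Ptgis, the prostacyclin synthase, is at chr2:167191805-167240604 on the - strand and overlaps the antisense gene Gm14291, also in the table; whether counting used strand is not given in the sources used here. It was a gene of smooth muscle, EC 1 and fibroblasts. The level was 861 and 1075 CPM in the VSMC libraries, 506 and 563 CPM in EC 1, 280 and 238 CPM in Fibro 1, and 265 and 228 CPM in Fibro 2. VSMC, EC 1 and the fibroblasts did not overlap, and the fibroblast populations did. All other populations averaged 77.2 CPM or less, and the highest of them, EC 2, averaged 47.4 CPM once called doublets were left out.

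A Ptgis UMI was seen in 89.9% of VSMC of library 1 (exact 95% interval 87.9 to 91.6%) and 98.2% of library 2 (97.2 to 98.9%). In EC 1 the shares were 78.4% (70.9 to 84.7%) and 88.4% (84.1 to 92.0%). Thinned to 2000 UMIs per cell, the shares were 77.4% and 84.6% in VSMC, 59.1% and 68.4% in EC 1, and between 29.7% and 38.1% in the fibroblasts. VSMC held 81.2% and 74.9% of the Ptgis UMIs of libraries 1 and 2, with 53.7% and 39.0% of all UMIs.

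The VSMC level exceeded that of EC 1 by a log2 fold of 0.87 ± 0.19 (adjusted p = 0.000345), of Fibro 1 by 1.89 ± 0.19 (adjusted p = 7.9e-10), of Fibro 2 by 1.98 ± 0.20 (adjusted p = 4.39e-10) and of Mono 1 by 4.10 ± 0.24 (adjusted p = 1.19e-15). Fibro 1 and Fibro 2 were both below EC 1 (log2 fold -1.02 ± 0.20, adjusted p = 7.27e-05, and -1.11 ± 0.20, adjusted p = 3.15e-05), and could not be told from each other (0.09 ± 0.20, adjusted p = 0.857). Within the endothelium Ptgis was highest in EC 1. EC 1 had 534 ± 40.1 CPM, against 77.2 ± 33.2 CPM in EC 2 (log2 fold 3.15 ± 0.28, adjusted p = 1.57e-10; 2.18 in library 1 and 3.31 in library 2) and 66.6 ± 15.7 CPM in EC 3 (3.30 ± 0.31, adjusted p = 1.39e-09). Ptgis was called in 29 of 45 pairs.

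As means of classes of populations, Ptgis was higher in smooth muscle than in the other 3 classes (log2 fold 3.09 ± 0.13, adjusted p = 1.97e-19, with 49.3% of genes called in this comparison) and in the fibroblast class (0.51 ± 0.13, adjusted p = 0.00161, with 46.9% of genes called). It was lower in the immune class of Mono 1, Mono 2 and Macro (-2.65 ± 0.17, adjusted p = 1.31e-14, with 50.2% of genes called). The endothelial class also came out lower (-0.94 ± 0.16, adjusted p = 2.29e-05, with 33.1% of genes called; -0.24 in library 1 and -0.96 in library 2), where a class is the plain mean of its log levels and EC 2 and EC 3 are low. The other members are at 0 UMIs in some populations, so for them no class fold is given.

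Transcripts of smooth muscle markers were counted at low levels in all populations. The level of Ptgis outside VSMC was therefore set beside that of 5 such markers, each as a percentage of its VSMC level; where these UMIs came from was not tested. In EC 1 Ptgis stood at 58.8% and 52.4% of VSMC in libraries 1 and 2, against a median of 5.92% and 3.48% for the markers. Fibro 1 had 32.5% and 22.1% for Ptgis against 4.63% and 2.63% for the markers, and Fibro 2 30.8% and 21.2% against 4.28% and 2.53%. Ptgis in these 3 populations was above every one of the 5 markers in both libraries. In EC 2 it was 11.7% and 5.00%, against 10.6% and 2.82%, and in Mono 1 4.82% and 5.36%, against 3.89% and 2.70%. In EC 2, EC 3, Mono 1, Mono 2 and Macro of library 1, Ptgis did not exceed the highest of the 5 markers. In EC 3 that marker was Myocd alone (15.6%, against 9.02% for Ptgis and at most 6.56% for the others), which had 1 UMI in EC 3, and in Macro Myocd, at 33.7%, had 6 UMIs over both libraries. In library 2 it was above all 5 in EC 3 (5.16%, against at most 2.90%), Mono 1 (5.36%, against at most 2.78%) and Mono 2 (4.12%, against at most 2.24%), so the libraries differ on these low levels.

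**Figure D4:**
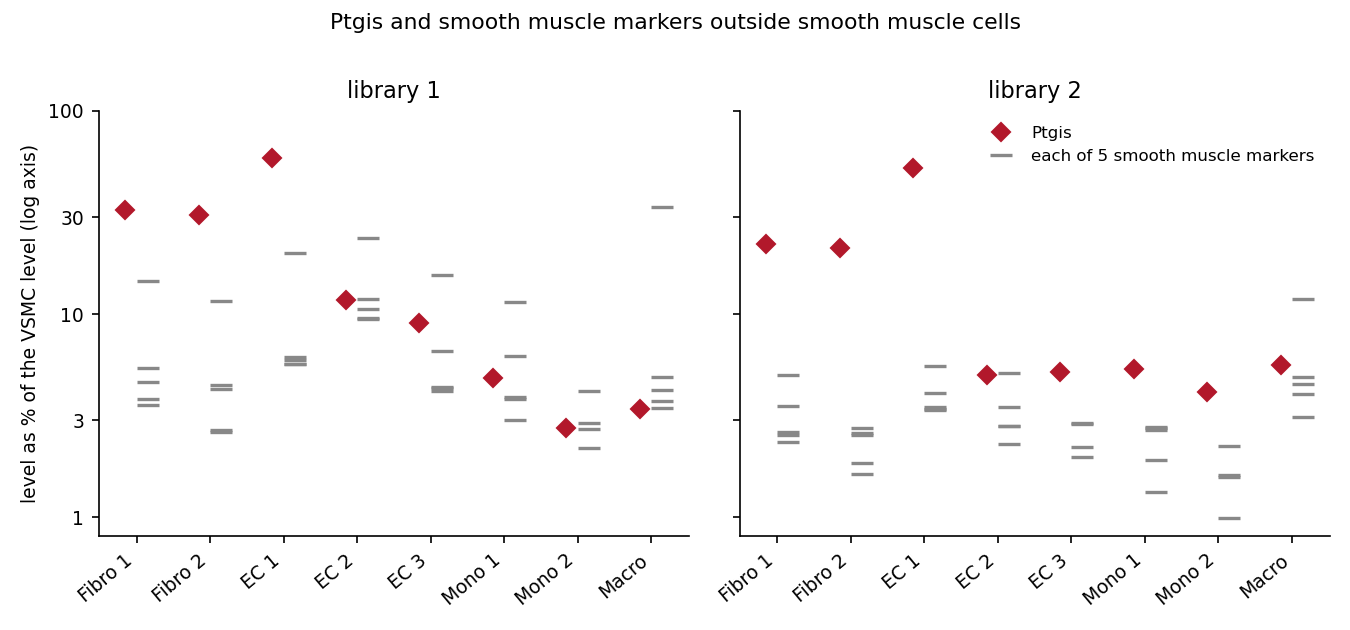
Level in each population as a percentage of the VSMC level (vertical axis, log scale) for Ptgis (red diamonds) and for each of Acta2, Myh11, Tagln, Cnn1 and Myocd (grey bars), with library 1 on the left, library 2 on the right, and markers at 0 not drawn. Ptgis lies above all 5 markers in Fibro 1, Fibro 2 and EC 1 of both libraries.

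Ptgis needs the product of a cyclooxygenase, and cells with UMIs of both Ptgis and Ptgs1 were counted. EC 1 held 44.9% of the 138 such cells of library 1 and 47.9% of the 355 of library 2, and Fibro 2 held 24.6% and 24.5%. In EC 1, 41.9% and 61.4% of cells had both, where the product of the single shares was 36.0% and 60.7%. Thinned to 1300 UMIs per cell, the EC 1 shares were 12.8% and 12.3%, against products of 11.2% and 15%, so the libraries went opposite ways. EC 1 cells with Ptgs1 had medians of 4218 and 5302 UMIs, against 2500 and 3624 UMIs in those without. In VSMC the share with both was 1.54% and 3.03% and the product 1.55% and 2.98%. In Fibro 2 cells with both were more frequent than the product (16.4% and 20.4%, against 12.1% and 14.6%). After thinning to 1300 UMIs per cell the Fibro 2 shares were 2.42% and 3.75%, against products of 2.53% and 2.16%, so the excess was seen in library 2 alone. Cells of Fibro 2 with Ptgs1 had medians of 6811 and 8361 UMIs, against 4124 and 5047 UMIs in those without.

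Ptges, the inducible prostaglandin E synthase at chr2:30889471-30929863 on the - strand, was a gene of fibroblasts. It had 22.1 and 19.6 CPM in the Fibro 2 libraries and 16.1 and 13.6 CPM in Fibro 1. The populations did not overlap, but the difference of Fibro 1 to Fibro 2 missed the threshold (log2 fold -0.48 ± 0.34, adjusted p = 0.442). Fibro 1 and Fibro 2 held 51.4% and 41.5% of all Ptges UMIs. VSMC had 8 UMIs in 2159 cells, and no other population had more than 1.

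VSMC was below Fibro 1 (log2 fold -4.47 ± 0.47, adjusted p = 2.64e-09) and Fibro 2 (-4.96 ± 0.48, adjusted p = 4.81e-10). Against the 1 UMI of EC 1, the ratio was 30.1 for Fibro 1 (counting interval 5.27 to 1201, adjusted p = 4.58e-05) and 42.7 for Fibro 2 (7.43 to 1707, adjusted p = 7.16e-06). A Ptges UMI was seen in 7.44% and 7.66% of Fibro 1 cells and in 11.1% and 10.8% of Fibro 2 cells, against 0.363% and 0.379% of VSMC. Ptges was called in 14 of 45 pairs.

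**Figure D5:**
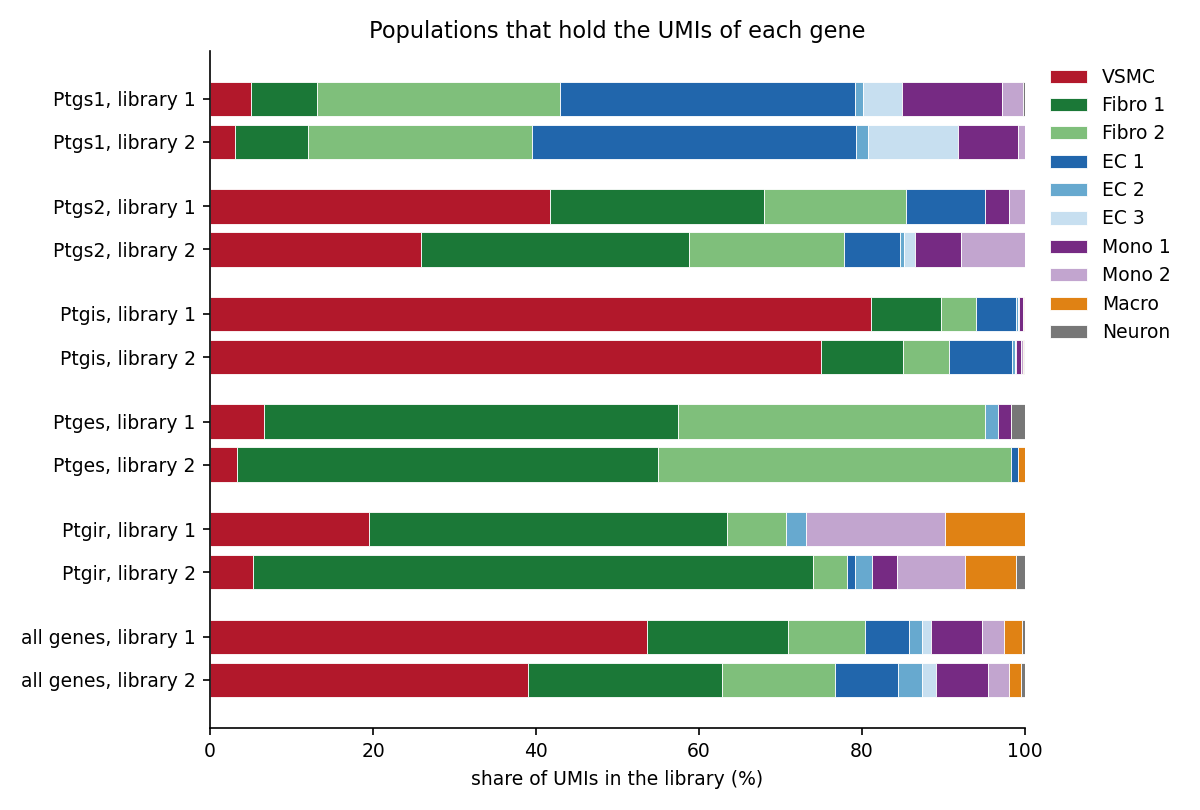
Share of the UMIs of each gene (horizontal axis, percent, linear) that each population held in library 1 and library 2, with the same share for all genes in the lowest pair of bars. VSMC hold 81.2% and 74.9% of Ptgis UMIs, the fibroblasts nearly all of Ptges, and EC 1 with Fibro 2 most of Ptgs1.

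Ptgir, the prostacyclin receptor at chr7:16906490-16910905 on the + strand, was found in leukocyte populations and in Fibro 1, and was close to 0 in VSMC, the population with most Ptgis. Its level was 23.8 and 16.1 CPM in the Mono 2 libraries, 16.7 and 21.2 CPM in Macro, and 9.36 and 14.2 CPM in Fibro 1. Mono 2 and Macro overlapped, and both lay above Fibro 1. Fibro 2 had 2.88 and 1.48 CPM, and VSMC 1.34 and 0.658 CPM, from 13 UMIs in 2159 cells. EC 1 had 1 UMI in 425 cells, EC 3 had 0 in 94 cells and Mono 1 had 3 in 443 cells. In absolute numbers Fibro 1 held most Ptgir UMIs, 84 of 137.

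Fibro 1 exceeded Fibro 2 (log2 fold 2.68 ± 0.57, adjusted p = 0.000884), with 1.11 in library 1 and 2.72 in library 2. VSMC was lower than Fibro 1 (-3.58 ± 0.47, adjusted p = 1.38e-07; -2.63 in library 1 and -3.99 in library 2), and its difference to Fibro 2 missed the threshold (-0.90 ± 0.78, adjusted p = 0.388). Fibro 1 had 26.9 times the level of EC 1 (counting interval 4.69 to 1074, adjusted p = 0.000138). Mono 1 had 3 UMIs and Mono 2 had 15, a ratio of 12.3 in favour of Mono 2 (counting interval 3.49 to 66.4, adjusted p = 0.00219). Mono 2 and Macro could not be told apart (log2 fold 0.23 ± 0.70, adjusted p = 0.905). Ptgir was called in 16 of 45 pairs.

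The number of members called differed between comparisons, and it stands beside the share of all genes called in the same comparison. In VSMC against Fibro 1 all 5 members were called, Ptgis higher and Ptgs1, Ptgs2, Ptges and Ptgir lower in VSMC, where 43% of genes were called. In VSMC against Fibro 2 the same direction held for 4 members, Ptgir not being called, with 42.2% of genes called. In VSMC against EC 1 there were 2, Ptgis higher and Ptgs1 lower, with 40% of genes called. In VSMC against Mono 1 there were again 2, Ptgis higher and Ptgs1 lower (log2 fold -4.20 ± 0.30, adjusted p = 2.55e-13), with 51.8% of genes called. With shares of genes this large, a call of 2 of 5 members is near the background.

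In Fibro 1 against Fibro 2, 2 members were called, Ptgir higher and Ptgs1 lower in Fibro 1, where 15.5% of genes were called. Fibro 1 against EC 1 had 4 called members, Ptges and Ptgir higher and Ptgis and Ptgs1 lower, with 38.4% of genes called. Fibro 2 against EC 1 had 3, Ptges higher and Ptgis and Ptgs1 lower, with 35.2%. In EC 1 against EC 2, 3 members were called and all 3, Ptgis, Ptgs1 and Ptgs2, were higher in EC 1, where 20.3% of genes were called. In EC 1 against EC 3 only Ptgis was called, with 11.6% of genes called. EC 1 exceeded Mono 1 in Ptgis (3.23 ± 0.24, adjusted p = 1.03e-12) and Ptgs1 (1.85 ± 0.20, adjusted p = 5.26e-09), with 38.6% of genes called.

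Among leukocytes, 3 members were called in Mono 1 against Mono 2, where 17.1% of genes were called and the median log2 fold of all genes was 0.14. Ptgs1 was higher in Mono 1 (1.30 ± 0.41, adjusted p = 0.0267; 0.0986 with DESeq2 and 0.0546 without the block), and Ptgir and, through the 1 cell described, Ptgs2 were lower. In Mono 2 against Macro 2 were called with 14.8% of genes called: Ptgs1 and Ptgs2 each had 19 UMIs in Mono 2 and 0 in Macro, at least 4.18-fold higher (against 3 counts over Macro; adjusted p = 0.00843 and 0.00488). Without the 1 cell the call of Ptgs2 was lost (adjusted p = 0.257, fitted without the filter).

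The genes that feed the cyclooxygenases were set beside the members in a list of 11, of which 9 are in the table and 6 were tested. Counts of called list genes, here and in the next paragraphs, are to be read against the share of all genes called. That share was 40% in VSMC against EC 1, 43% in VSMC against Fibro 1 and 15.5% in Fibro 1 against Fibro 2. It was 38.4% and 35.2% in Fibro 1 and Fibro 2 against EC 1. In EC 1 against EC 2 it was 20.3%, and in Mono 1 against Mono 2 17.1%. A count near its share is no result about the list. The phospholipase Pla2g4a, which frees arachidonic acid, had 70.1 and 64.7 CPM in the Fibro 2 libraries and averaged 59.6 ± 2.23 CPM in VSMC, 45.9 ± 1.28 in Fibro 1 and 42.1 ± 1.00 in EC 1, and 12.2 ± 7.81 CPM in EC 2. The secreted phospholipase Pla2g5 had 80 of its UMIs in EC 1 (41.0 ± 9.70 CPM) and at most 5 in any other population. In EC 1 against EC 2, 3 release genes were higher and 1 lower (median log2 fold 0.36, against 0.01 for all genes). Pla2g4a was higher (2.30 ± 0.53, adjusted p = 0.00161) and Mgll, a lipase that frees arachidonic acid from a glycerol ester, was lower (-3.99 ± 0.18, adjusted p = 2.94e-17). In VSMC against EC 1, 1 was higher and 2 lower (median 0.31, against 0.03), and in Fibro 1 against Fibro 2, 0 were higher and 3 lower (median -0.73, against 0.02): Daglb at -1.83 ± 0.19, Mgll at -0.92 ± 0.19 and Pla2g4a at -0.53 ± 0.18.

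Of 8 other terminal synthases 7 were tested. In both Fibro 1 and Fibro 2 against EC 1, 3 were higher and 0 lower (median 0.74, against 0.02, for Fibro 1 and 0.71, against 0.00, for Fibro 2), the 3 being Cbr1, Fam213b and Akr1b3. There were 2 higher and 0 lower in VSMC against EC 1 (0.43, against 0.03), 1 and 2 in VSMC against Fibro 1 (-0.20, against -0.02), 0 and 1 in EC 1 against EC 2 (0.13, against 0.01), 0 and 0 in Fibro 1 against Fibro 2 (0.01, against 0.02) and 2 and 0 in Mono 1 against Mono 2 (0.30, against 0.14). Thromboxane synthase Tbxas1 averaged 126 ± 25.8 CPM in Mono 1 and 94.6 ± 5.52 CPM in Mono 2, and at most 2.09 CPM elsewhere. The haematopoietic prostaglandin D synthase Hpgds averaged 127 ± 53.5 CPM in Mono 1 and at most 9.82 CPM elsewhere. Ptges3, another prostaglandin E synthase that is also a chaperone partner, was higher in VSMC than in EC 1 (0.43 ± 0.12, adjusted p = 0.0042), and it averaged between 115 and 203 CPM in all 10 populations.

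Of 8 other prostanoid receptors 6 are in the table and 4 were tested. VSMC, with little Ptgir, had the thromboxane receptor Tbxa2r at 50.8 ± 5.33 CPM, against 21.6 ± 5.53 CPM in Fibro 1 (log2 fold 1.26 ± 0.19, adjusted p = 1.59e-06) and 3 UMIs in EC 1. The prostaglandin F receptor Ptgfr averaged 76.1 ± 6.30 CPM in Fibro 1 and 56.9 ± 8.47 CPM in Fibro 2, and VSMC was below Fibro 1 (-5.25 ± 0.22, adjusted p = 8.48e-19). The prostaglandin E2 receptor Ptger4, which like Ptgir signals by cyclic AMP, was higher in Fibro 1 than in Fibro 2 (1.32 ± 0.41, adjusted p = 0.0248), the direction of Ptgir. VSMC was below EC 1 for Ptger4 (-5.08 ± 0.37, adjusted p = 3.66e-13). The list counted 1 higher and 1 lower in VSMC against EC 1 (median 1.78, against 0.03), 1 and 2 in VSMC against Fibro 1 (-1.87, against -0.02), 0 and 1 in EC 1 against EC 2 (-1.28, against 0.01), 1 and 0 in Fibro 1 against Fibro 2 (1.00, against 0.02) and 0 and 0 in Mono 1 against Mono 2 (-0.14, against 0.14).

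For transport and breakdown, 6 genes were tested. The prostaglandin transporter Slco2a1 was, like Ptgs1, highest in EC 3 and EC 1: 201.8 and 361 CPM in the EC 3 libraries, 181 and 139 CPM in EC 1, 2 UMIs in EC 2 and at most 11.5 CPM elsewhere. VSMC was below EC 1 (-5.46 ± 0.25, adjusted p = 6.37e-18), and EC 1 was below EC 3 (-0.82 ± 0.23, adjusted p = 0.0134). The breakdown enzyme Hpgd averaged 354 ± 111 CPM in Mono 1, 64.2 ± 13.9 CPM in EC 3 and 44.2 ± 14.5 CPM in Mono 2, and at most 7.73 CPM elsewhere; Mono 1 exceeded Mono 2 (2.72 ± 0.29, adjusted p = 3.65e-08). The list counted 1 higher and 2 lower in VSMC against EC 1 (median -0.19, against 0.03), 1 and 1 in EC 1 against EC 2 (-0.52, against 0.01) and 1 and 0 in Mono 1 against Mono 2 (0.34, against 0.14).

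Genes of cyclic AMP signalling, through which Ptgir acts, numbered 18, of which 16 were tested. In Fibro 1 against Fibro 2, 4 were higher and 0 lower (median 0.21, against 0.02), with the adenylyl cyclases Adcy7 (2.01 ± 0.18, adjusted p = 3.22e-10) and Adcy5 (1.59 ± 0.29, adjusted p = 0.000112) and the phosphodiesterases Pde4b (1.62 ± 0.32) and Pde3b (1.19 ± 0.25). In VSMC against Fibro 1, 7 were higher and 4 lower (0.50, against -0.02), and Adcy5 reached 240 ± 36.7 CPM in VSMC. In VSMC against EC 1, 6 were higher and 4 lower (0.37, against 0.03), Adcy5 higher in VSMC (3.65 ± 0.21, adjusted p = 1.07e-15) and Adcy4 lower (-5.22 ± 0.21, adjusted p = 5.77e-19). In EC 1 against EC 2, 3 were higher and 2 lower (-0.19, against 0.01), and Pde3a was higher in EC 1 (3.67 ± 0.28, adjusted p = 6.52e-12).

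The lipoxygenase branch uses the same arachidonic acid. Of its 9 genes 6 were tested, and 2 were higher and 4 lower in Mono 1 against Mono 2 (median -0.75, against 0.14), with Ltc4s, a leukotriene synthase, higher (5.59 ± 0.28, adjusted p = 1.02e-15) and Ltb4r1, a leukotriene receptor, lower (3 UMIs in Mono 1 and 191 in Mono 2, adjusted p = 4.03e-14). Of the immediate early genes 17 of 18 were tested. In EC 1 against EC 2, where Ptgs2 was higher in EC 1, 0 of them were higher and 11 lower (median -0.93, against 0.01), among them Socs3 (-3.10 ± 0.45) and Btg2 (-1.87 ± 0.34). In VSMC against Fibro 1, where Ptgs2 was lower, 2 were higher and 8 lower (median -0.37, against -0.02).

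The genes with the most similar pattern to each member were found by Pearson's r of log2 CPM over the 20 sums, which share 2 libraries and their depths. For Ptgis they were Tcta (r = 0.895), Sulf1, Adamts10, Fam8a1 and Hipk3, for Ptgs1 Raph1 (0.862), Ube2l6, Pnp, Klf4 and Mvp, and for Ptges Adgrg2 (0.919), Pcolce, Inmt, Gsn and Sox9. For Ptgs2 they were Usp50 (0.889), Gabarap, Ssr3, Pvrl1 and 1810043H04Rik, and for Ptgir Esyt1 (0.813), Xylt1, B930036N10Rik, Gm26917 and Nubp1. Spearman's rho placed 2 of the 5 genes for Ptgs2 and 1 of 5 for each other member among its own first 5, so the lists depend on the measure.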

How the data were processed

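Per the labels, dissociated aortas were profiled with 10x v2 droplet libraries. The authors deposited counts of UMIs per gene and cell, and a name of a population for every cell. The submitters' processing notes list Cell Ranger 2.1. Which genome build and annotation were used is not given in the sources used here. The number that ends a barcode gave the library. Which library is the aorta labelled WT1 and which WT3 is not stated. The labels count 2 aortas on chow. Library was a block, so the difference between these 2 samples that all populations share was taken out. The p-values rest on the variation left, with residual df 9 over all populations, and not on the whole spread between the aortas. The fit also draws the spread of each gene toward that of the other genes. A small p-value therefore does not measure the variation of that gene alone.

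UMIs were summed per library and population (20 sums of at least 10 cells), filtered with filterByExpr, scaled by TMM and fitted with edgeR 4.0.16 (quasi-likelihood, residual df 9) in R 4.3.3. An SE is |log2 fold| divided by the root of the F statistic. A fold within 1 library compares its CPM after a prior count of 2 was added. With 1 to 3 UMIs a ratio with its 95% counting interval is given, and against 0 UMIs a bound at 3 counts. With Python 3.11.15, doublets were called by Scrublet in scanpy 1.11.5 (58 and 26 cells) and left out in an alternative alone, and cells were thinned to 1300 or 2000 UMIs (the second leaves out 362 and 95 cells). On simulated data, edgeR recovered 50% of genes changed 2-fold and 98% of those changed 4-fold for EC 1 against EC 2, and 76% and 100% for Fibro 1 against Fibro 2. It called 6 of 9905 and 5 of 9925 unchanged genes. The simulated counts were drawn from the means and the spread that edgeR had fitted. These figures therefore cannot show how well that spread describes the libraries. The percentages recovered do not cover genes with few UMIs. In EC 1 against EC 2 that leaves out Ptgs2 (25 and 1 UMIs), Ptges (1 and 1) and Ptgir (1 and 3).

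The members, lists and alternatives were chosen with earlier results of these data known. Named are the 5 members, up to 4 called genes of each pathway list with the largest fold in a comparison described, the 5 genes most like each member, and markers. Named outside this rule, after values were seen, are the levels of pathway genes across populations, Pi16, Gm14291, and the genes of single cells (Ccr7, Ccl5, Il1b, and Gata3, Il7r, Rora, Il1rl1, Areg, Cd3e and Cd79a).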

Additional observations from a re-analysis of the deposited data

How the results depend on the processing

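The called folds of Ptgis, Ptges and Ptgir, and those of Ptgs1 and Ptgs2 other than the calls named here, kept their direction and their side of the threshold under RLE scaling, DESeq2, no filter on low counts, doublets left out and no replicate block. Thinning left 28 of the 64 folds of members that could be fitted. Ptgs2 in EC 1 against EC 2 gave 3.19 with DESeq2 (adjusted p = 0.0722) and 3.25 with no replicate block (adjusted p = 0.0556). Both calls of Ptgs1 and Ptgs2 in Mono 1 against Mono 2 were also lost. For Ptgs1 the log2 fold was 1.22 with DESeq2 (adjusted p = 0.0986), 1.29 with no replicate block (adjusted p = 0.0546) and 0.68 after thinning to 1300 UMIs per cell (adjusted p = 0.594). For Ptgs2 it was -1.75 with no replicate block (adjusted p = 0.0601), and 0.48 without the 1 cell (adjusted p = 0.92), an alternative chosen after seeing the data that also gave 6.16 in Mono 2 against Macro (adjusted p = 0.257). The cause of the other changes was not tested.

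With each cell weighted equally and 5 CPM added, the folds below moved, all toward 0 but that of Ptgis. Ptgs1 gave -4.74 for VSMC against EC 1, -1.21 against Fibro 1, -3.27 against Fibro 2 and -2.88 against Mono 1, and Fibro 1 gave -2.06 against Fibro 2 and -3.53 against EC 1. Ptgs2 gave -0.70 for VSMC against Fibro 1 and -0.95 for Mono 1 against Mono 2. Ptges gave -1.75 and -2.38 for VSMC against Fibro 1 and Fibro 2. Ptgir gave -1.40 for VSMC against Fibro 1 and 1.25 for Fibro 1 against Fibro 2, and Ptgis -1.40 for Fibro 2 against EC 1.

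The sign of some uncalled folds turned. These were Ptges in VSMC against Mono 1 (-0.02 with RLE, -0.04 with DESeq2, -0.18 with doublets left out), in EC 1 against EC 2 (2.74 with doublets left out), in EC 1 against EC 3 (-0.68 with DESeq2) and in Mono 1 against Mono 2 (-0.05 with DESeq2). They were also Ptgir in EC 1 against EC 3 (-0.71 with DESeq2), and Ptgis in Fibro 1 against Fibro 2 (-0.03 after thinning) and in Mono 2 against Macro (0.12 with doublets left out).

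Each library alone gave, as the range of 2 values, -6.03 to -5.98 for Ptgs1 in VSMC against EC 1, -2.26 to -2.22 against Fibro 1 and -4.30 to -3.82 against Mono 1. Ptgs1 ran between -3.77 and -3.76 in Fibro 1 against EC 1 and between 2.76 and 3.31 in EC 1 against EC 2. Ptges ran between -4.15 and -4.09 in VSMC against Fibro 1 and between -4.69 and -4.58 against Fibro 2. Ptgs2 ran between -1.35 and -1.06 in VSMC against Fibro 2 and between -1.77 and -0.93 in Mono 1 against Mono 2. Ptgir ran between 1.11 and 2.72 in Fibro 1 against Fibro 2. Ptgis ran between 4.18 and 4.28 in VSMC against Mono 1, 2.18 and 3.31 in EC 1 against EC 2, 2.45 and 3.19 against EC 3, and 3.25 and 3.52 against Mono 1. Its class folds ran between 2.83 and 3.17 for smooth muscle, -0.96 and -0.24 for endothelial and -3.22 and -2.45 for immune. These are values with no test.

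Thinning to 1300 UMIs per cell, which removes most UMIs, lowered the number of genes called. It was 2265 for VSMC against EC 1, 2420 against Fibro 1, 2351 against Fibro 2 and 3135 against Mono 1. It was 721 for Fibro 1 against Fibro 2, 2169 for Fibro 1 and 1888 for Fibro 2 against EC 1, 1278 for EC 1 against EC 2, 696 against EC 3 and 2207 against Mono 1. It was 658 for Mono 1 against Mono 2 and 660 for Mono 2 against Macro, and 2805, 2530, 1752 and 2726 for the smooth muscle, fibroblast, endothelial and immune classes. For Fibro 1 against Fibro 2, 1626 genes were called, 1078 with DESeq2 and 939 with no replicate block.

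Depth limits Ptgs2, Ptges and Ptgir, whose levels outside VSMC and the fibroblasts rest on 25 UMIs or fewer. The levels of Ptges in VSMC (8 UMIs), Ptgir in VSMC (13 UMIs) and Ptgir in Fibro 2 (7 UMIs) also rest on few. With 2 libraries, the spread between samples rests on 2 values for each level.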

Other observations

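Macro, whose name goes against its markers, held 10 Ptgir UMIs, 1 in each of 10 of its 167 cells. Of these, 8 fell in the 35 Macro cells with under 2 UMIs of both T and NK cell markers and B cell markers, where the level was 55.9 and 78.1 CPM in libraries 1 and 2. The level was 7.92 and 6.39 CPM in the 83 cells that reached 2 UMIs for the T and NK list alone, and 0 in the 46 cells that did so for the B cell list alone. All 10 cells with Ptgir had UMIs of Gata3 and of the cytokine receptor Il7r, where 43 and 79 of the 167 cells had them. Il1rl1, the receptor of interleukin-33, was in 9 of the 10 and in 30 of the 167, and Rora in 8 and 45. The growth factor Areg had 71 of its 84 Macro UMIs in 3 of the cells with Ptgir. Cd3e and Cd79a had 0 UMIs in the 10 cells. Macro cells with Ptgir were also deeper (medians of 3418 and 3482 UMIs, against 2299 and 2896 UMIs in those without). Median depth was 3138 and 3795 UMIs in the 35 cells. It was 2633 and 3186 UMIs in the 83 cells and 1997 and 2361 UMIs in the 46 cells. The genes were looked up after the cells had been seen, and neither the difference nor the part of depth in it was tested.

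Among the fibroblasts, 10 cells had at least 2 UMIs of mesothelial markers such as Msln and Upk3b. Of these, 9 were in library 2 and 1 in library 1. The 9 cells had 558 CPM of Ptgis (34 UMIs) and 279 CPM of Ptgs1 (17 UMIs), against 231 and 50.5 CPM in the 1175 other fibroblasts of library 2. The 1 cell of library 1 had 3 UMIs of Ptgis and 1 of Ptgs1. The 9 cells were also deeper, with a median of 7324 UMIs, against 5948 UMIs in the other fibroblasts of library 2. The 10 cells held 0 UMIs of Ptgs2, Ptges and Ptgir. So few cells cannot show absence, as the other fibroblasts of both libraries had only 15.3, 16.6 and 8.88 CPM of these genes. Without such cells the Ptgs1 level of Fibro 2 was 114 and 103 CPM.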
